A study of Tupaia belangeri with 6 samples.

Results

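Neuropeptide genes of interneurons were examined in single-nucleus RNA sequencing (snRNA-seq) of the hippocampus of the tree shrew (TS, Tupaia belangeri). The set comprised 8 genes, SST, NPY, VIP, CCK, TAC1, CRH, CRHBP and NMU, taken by symbol from the 83605 features of the count matrices, and all 8 were present. Of the 6 libraries, 3 came from TSs with Alzheimer's-like pathology (ALP, titled AD) and 3 from control TSs (titled Normal). Both groups were aged animals of matched age with no engineered allele and no agent given. Animals of each group were picked from a larger cohort by transit time in a pipeline maze, longer for ALP and shorter for control TSs. The ALP group is thus a spontaneous, behaviorally selected model, and control TSs were selected on the same maze. Sex is not in the labels, and Y-linked transcripts were abundant in control 1, control 2 and ALP 2 only. The question was in which cell classes each gene was detected and whether its level differed between ALP and control TSs, beside the background in glial nuclei.

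Neuropeptides are cut from larger precursors, packed into dense-core vesicles and released during sustained firing, after which they act on G protein-coupled receptors over longer times than GABA. In the hippocampus several of them mark classes of inhibitory neuron: somatostatin (SST) dendrite-targeting cells, vasoactive intestinal peptide (VIP) cells that contact other interneurons, and cholecystokinin (CCK) basket cells. Interneurons born in the medial ganglionic eminence (MGE) express LHX6, and those born in the caudal ganglionic eminence (CGE) express ADARB2. CRHBP differs from the other genes in that it encodes a secreted binding protein that captures corticotropin-releasing hormone (CRH), not a peptide transmitter.

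After removal of nuclei with 2500 or more genes, a limit from the methods of the study, 1614 to 7023 nuclei per library remained. Inhibitory neuron-like (InN-like) nuclei numbered 2476, with 296 to 498 per library, 1325175 to 2130987 UMIs per library and a median of 3780 to 4612 UMIs per nucleus. The 8 genes were kept out of the variable genes used for clustering, and none was a naming marker. Of the defining InN markers, GAD2 and SLC32A1 were listed at 0 UMIs in every class. GAD1 was at 8.03 CPM (counts per 1000000 UMIs of the sum) in InN-like nuclei and at most 1.02 CPM in the other named classes. DLX6 was at 162 CPM and LHX6 at 20.5 CPM in InN-like nuclei. Control 3 stood apart, holding 89 of 95 nuclei of 1 InN-like subcluster and 103 of 183 of another. Barcodes shared between 2 libraries numbered 4 to 18. The methods describe tissue from 3 animals per group, and p-values measure the spread among these 6 libraries.

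Across the named cell classes, the mean level of every gene over the 6 libraries was highest in InN-like nuclei. Nuclei of unnamed clusters entered no class and are not in this order. The largest unnamed cluster held 1800 nuclei, 1146 of them from control 3, with a median of 653 UMIs. CCK stood at 200 ± 91.6 CPM (SD, n = 6), SST at 183 ± 131 CPM, NPY at 183 ± 162 CPM and VIP at 156 ± 67.6 CPM. CRH at 32.4 CPM, CRHBP at 31.2 CPM, TAC1 at 14.1 CPM and NMU at 6.86 CPM were lower. In this 3′ assay a UMI stands for 1 captured molecule whatever its length, and CPM was not divided by length. The distance to the next class differed between genes. VIP in the second class, granule neuron-like (Gran-like) nuclei, was at 8.57 ± 11.2 CPM. For VIP, CRH and CRHBP the ranges over libraries of the first and second class did not overlap. For SST, NPY and CCK the second class was the small endothelial-like (Endo-like) class of 429 nuclei, at 57.8 ± 29.8, 58.1 ± 49.1 and 100 ± 38.5 CPM, which rested on 45, 34 and 71 UMIs in all.

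Within libraries, SST, VIP, CRH and CRHBP were higher in InN-like nuclei than in the next class in 6 of 6 libraries. By an exact two-sided sign-flip permutation test (n = 6), p was 0.031 for each, the smallest this design gives, and 0.0625 after Benjamini-Hochberg adjustment over the 8 genes. NPY, CCK and NMU were higher in 5 of 6 libraries (exact p = 0.0625, n = 6) and TAC1 in 4 of 6 (exact p = 0.6875, n = 6). Below the first class, each class overlapped in its range over libraries with the next class in the order, for all 8 genes. In named classes other than InN-like and Endo-like, SST lay between 7.39 CPM in pyramidal neuron-like (Pyra-like) and 20.8 CPM in oligodendrocyte-like (Oligo-like) nuclei. CCK lay between 31.1 and 58.4 CPM in these classes.

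Among InN-like nuclei, each gene had its own distribution over 19 subclusters. Subclusters with LHX6 above its mean over InN-like nuclei were called the LHX6 group and those below it the ADARB2 group. Of SST UMIs, 92.8% lay in the LHX6 group, and 58.9% lay in subcluster 0, named MGE-SST-like from GRIN3A, ELFN1, TRHDE and other markers. In that subcluster 83.3% of 227 nuclei held an SST UMI, at 1236 CPM. TAC1, the precursor of substance P, was more restricted, with 77.4% of its 159 UMIs in the MGE-SST-like subcluster. NPY, the precursor of a peptide that damps glutamate release, had its highest level in unnamed subcluster 16 at 1403 CPM, followed by unnamed subcluster 8 at 484 CPM and the MGE-SST-like subcluster at 408 CPM. Thus 89.2% of NPY UMIs were also in the LHX6 group.

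VIP had the opposite lineage, with 92.1% of its UMIs in the ADARB2 group and 68.1% in the 3 CGE-VIP-like subclusters. Subcluster 1 was highest at 1098 CPM. CCK was broader, with 65.9% of UMIs in the ADARB2 group and 30.6% in the LHX6 group. Its highest levels were 794 CPM in CGE-CNR1-like subcluster 7, where the cannabinoid receptor gene CNR1 and the vesicular glutamate transporter gene SLC17A8 were markers, and 727 CPM in unnamed subcluster 12. That unnamed subcluster also held VIP at 727 CPM, the second highest VIP level.

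CRH was split between lineages, with 52.5% of its 343 UMIs in CGE-VIP-like and 39.7% in MGE-SST-like nuclei. CRHBP was in the LHX6 group for 93.9% of its UMIs, of which MGE-SST-like nuclei held 46.3% and MGE-PVALB-like nuclei 27.4% of the total. NMU, which encodes neuromedin U, was restricted to a similar degree as TAC1 but elsewhere: 54 of its 70 UMIs lay in unnamed subcluster 4, at 65.2 CPM. In that subcluster NMU was at 88.3 and 35.4 CPM in control 1 and control 2 and at 49.8, 74.95 and 61.0 CPM in ALP libraries, with under 10 nuclei in control 3, and the groups overlapped.

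**Figure D1:**
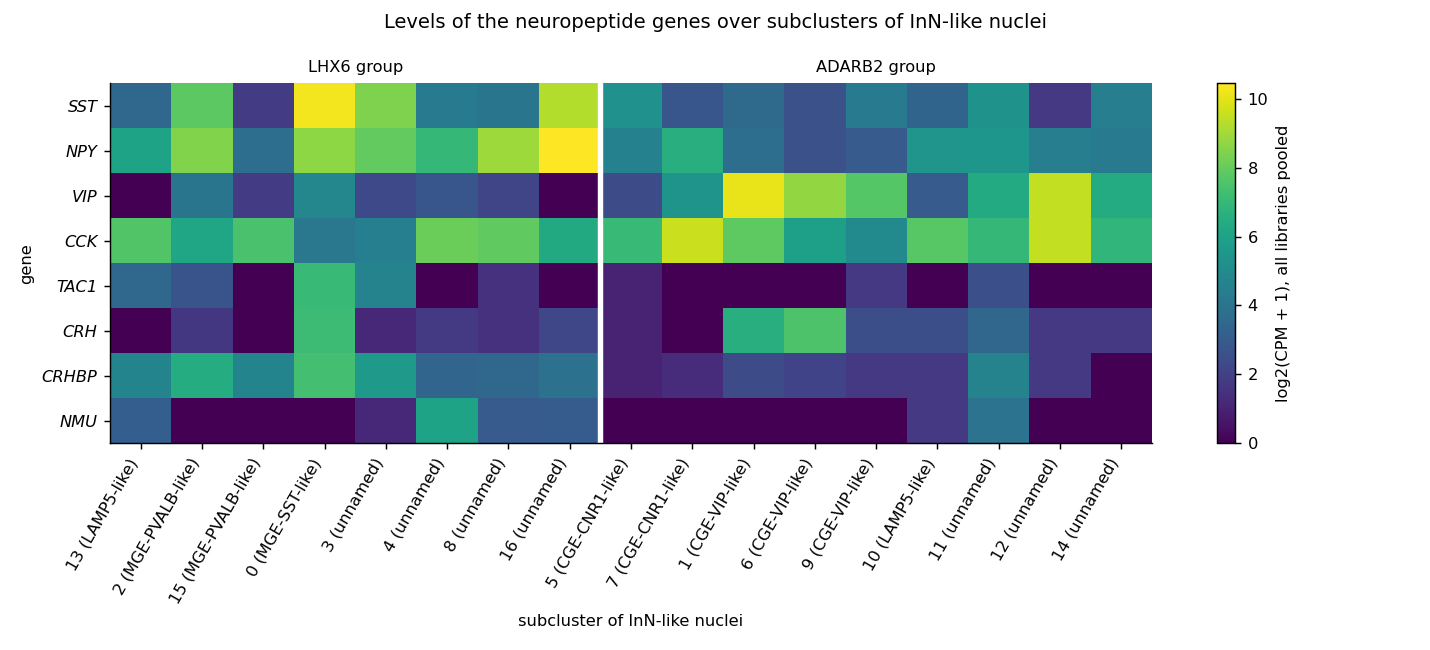
Heat map of log2(CPM + 1), all libraries pooled, for the 8 genes (rows) over subclusters of InN-like nuclei (columns), with the LHX6 group to the left and the ADARB2 group to the right; subclusters 17 and 18, assigned to neither, are not drawn. SST and TAC1 are brightest in MGE-SST-like subcluster 0, VIP in CGE-VIP-like subcluster 1, CCK in CGE-CNR1-like subcluster 7, NPY in subcluster 16 and NMU in subcluster 4.

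Single nuclei showed the same combinations. SST was detected in 81.7% of 71 TAC1-positive nuclei and 17.0% of TAC1-negative nuclei, and in 36.1% of NPY-positive against 14.98% of NPY-negative nuclei, each higher in 6 of 6 libraries. Among CRHBP-positive nuclei 50.9% held SST. By contrast 5.68% of VIP-positive nuclei held SST, against 21.3% of VIP-negative nuclei, lower in 6 of 6 libraries. VIP was found in 40.5% of CRH-positive nuclei against 14.0% of CRH-negative nuclei, and in 21.1% of CCK-positive against 13.2% of CCK-negative nuclei. SST was held by 8.77% of 57 NMU-positive nuclei and NPY by 42.1% of them. These shares are a description, since detection also depends on the UMIs of each nucleus.

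The comparison of ALP with control TSs began with the sums over all InN-like nuclei. By plain CPM, 6 of 8 genes had all 3 ALP libraries above all 3 control libraries, beside 5.81% of the 11965 genes tested. For SST the control libraries stood at 90.7, 103 and 65.8 CPM (control 1 to 3), and the ALP libraries at 418, 211 and 211 CPM (ALP 1 to 3). The groups did not overlap, and the means were 86.4 ± 18.8 and 280 ± 120 CPM (SD, n = 3 each), a 3.24-fold difference. NPY was at 98.4, 62.6 and 46.3 CPM in control and 404, 114 and 375 CPM in ALP libraries. ALP 2 was thus close to the highest control for NPY, while ALP 1 and ALP 3 were well above it, and the means differed 4.30-fold. TAC1 was at 7.03, 4.53 and 4.63 CPM in control and 20.2, 35.7 and 12.3 CPM in ALP libraries, a 4.21-fold difference without overlap, on 159 UMIs in all.

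VIP was at 118, 130 and 69.9 CPM in control and 192, 265 and 164 CPM in ALP libraries, a 1.96-fold difference without overlap. CCK was at 132, 146 and 109 CPM in control and 270, 199 and 346 CPM in ALP libraries, 2.11-fold, also without overlap. CRHBP was at 28.7, 24.9 and 13.9 CPM against 55.5, 31.9 and 32.6 CPM, 1.78-fold without overlap. CRH at 40.2, 16.6 and 10.3 CPM against 53.4, 39.9 and 34.0 CPM overlapped between groups, because control 1 exceeded ALP 2 and ALP 3. NMU overlapped too, at 10.2, 1.51 and 3.60 CPM against 5.55, 7.98 and 12.3 CPM.

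**Figure D2:**
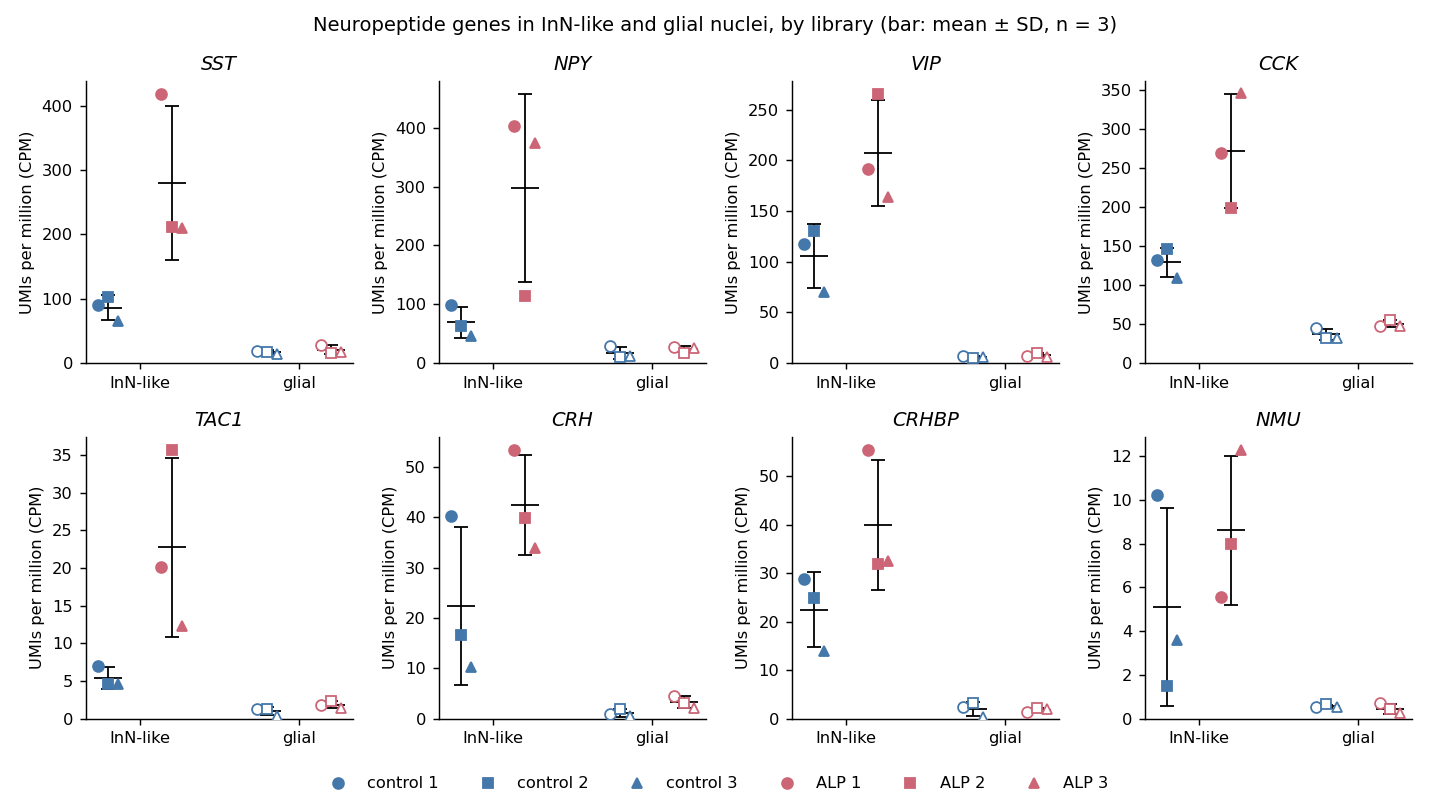
CPM of each gene (one panel per gene, linear axes with different ranges) in InN-like nuclei (filled) and glial nuclei (open) of each library, blue for control and red for ALP, with the mean and SD of 3 libraries as bars. ALP libraries lie above control libraries in InN-like nuclei for SST, NPY, VIP, CCK, TAC1 and CRHBP, and in glial nuclei for CCK, TAC1 and CRH. Glial levels lie below the InN-like level of the same library. For CCK the InN-like level is 2.91 to 4.49 times the glial level in control and 3.58 to 7.29 times in ALP libraries.

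By edgeR's quasi-likelihood test with Benjamini-Hochberg adjustment over 11965 genes, no gene of the set passed an adjusted p of 0.05. No other gene did either (0%), and 7 of the 8 had an unadjusted p under that value, beside 19.7% of all genes and 8.27% for those higher in ALP. The log2 fold changes in edgeR were 1.87 (SE 0.29, adjusted p = 0.0524) for SST, 2.30 (SE 0.45, 0.0536) for NPY and 2.23 (SE 0.41, 0.0524) for TAC1. They were 1.24 (SE 0.23, 0.0524) for CCK and 1.12 (SE 0.23, 0.0555) for VIP. CRH at 1.11 (SE 0.41, 0.170), CRHBP at 1.01 (SE 0.33, 0.128) and NMU at 0.86 (SE 0.57, 0.444) were further from the threshold. All 8 estimates were positive, with a median of 1.18 beside 0.01 over all genes tested.

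DESeq2 called 5 of the 8 genes (SST, NPY, VIP, CCK and TAC1), with 3.91% of all genes called. Leaving out control 1, control 2 or ALP 2 brought 6, 4 and 3 genes past the threshold in edgeR, with 3.8%, 3.14% and 0.297% of all genes called in those fits. Without control 3, ALP 1 or ALP 3, 0 were called. The highest adjusted p of SST over all alternatives was 0.233, and its log2 fold change ranged from 1.05 to 2.09. All 143 estimates for the 8 genes under the alternatives were positive.

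A single nucleus carried much of 1 value. In ALP 1 a nucleus of MGE-PVALB-like subcluster 2 with 3704 UMIs held 272 NPY and 97 SST UMIs, 34.0% of the 801 NPY UMIs of that library. It held 0 PVALB and 0 LHX6 UMIs and was not marked as a doublet. Without it the NPY level of ALP 1 fell to 267 CPM. With the top nucleus of the gene left out in every library, the log2 fold changes were 2.22 for NPY and 1.83 for SST.

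Glial nuclei (16101 Oligo-like, OPC-like, Astro-like and Micro-like nuclei) gave the background. There SST was at 17.1 ± 2.55 CPM in control and 20.6 ± 7.03 CPM in ALP libraries, NPY at 17.5 ± 10.5 and 23.3 ± 4.87 CPM, and VIP at 5.80 ± 1.15 and 7.80 ± 1.98 CPM (SD, n = 3 each), all overlapping between groups. CCK was at 45.2, 32.4 and 32.5 CPM in control and 48.0, 55.7 and 47.4 CPM in ALP glial nuclei. CRH was at 0.97, 1.94 and 0.52 CPM against 4.55, 3.18 and 2.19 CPM, on 50 UMIs. CCK, TAC1 and CRH thus had all ALP glial levels above the control levels, as did 6.01% of genes with at least 10 glial UMIs.

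In the edgeR fit on glial sums, 4 of the 8 genes had enough counts to be tested and none was called, with 0% of 16997 genes called. CCK had a log2 fold change of 0.57 (SE 0.19, unadjusted p = 0.0142, adjusted p = 0.138 in edgeR). The InN-like level was next divided by the glial level of the same library. For SST the ratio was 4.65, 5.78 and 4.55 in control and 14.5, 13.0 and 12.3 in ALP libraries, with no overlap. For NPY it was 3.33, 5.89 and 3.64 against 14.9, 6.35 and 14.8, again without overlap. The 2 differences each had p = 0.1 in an exact permutation test (n = 3 each), the smallest this design allows, and 0.4 after adjustment over the 8 genes. The other 6 ratios overlapped, and for CRH the mean log2 ratio was lower in ALP by 0.43, which fell short of the spread among control libraries (SD 1.19). For how many of all genes such a ratio separated the groups was not computed.

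The difference between the InN-like and the glial change was tested as an interaction in edgeR, in which the call rule was met by 0.0258% of 15518 genes. SST passed, with a difference in log2 fold change of 1.51 (SE 0.21, adjusted p = 0.0172). Its adjusted p rose to 0.189 without control 3, 0.287 without ALP 1 and 0.0865 without ALP 3, while the estimate stayed between 1.44 and 1.60. NPY had a larger estimate with a wider error, 1.64 (SE 0.32, adjusted p = 0.142 in edgeR). VIP at 0.78, CCK at 0.67, TAC1 at 1.01, NMU at 0.92, CRHBP at 0.69 and CRH at −0.91 did not pass. In the other classes few of the 8 genes had enough counts to be tested. These were 4 in Oligo-like, 3 each in Gran-like and Astro-like, and 2 in Pyra-like nuclei. In ExN-like, OPC-like and Micro-like nuclei 1 each was tested, and in Endo-like nuclei 0. None of the genes tested was called by edgeR. NPY in Astro-like nuclei had the lowest unadjusted p (0.0043, log2 fold change 1.13, adjusted p = 0.118 in edgeR). Among all genes, 4.93% were called in oligodendrocyte-like nuclei, 3.25% in the excitatory ExN-like class and 1.72% in granule neurons. The share was 1.18% in oligodendrocyte precursors, 0.534% in microglia, 0.0688% in astrocytes and 0% in both pyramidal and endothelial-like nuclei.

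The share of InN-like nuclei with a UMI was compared after each nucleus was thinned to 1000 UMIs. SST was detected in 6.64 ± 1.09% of control and 12.5 ± 4.27% of ALP InN-like nuclei, and in 1.70% and 1.93% of glial nuclei at the same depth. The shares were 10.5 ± 0.87% and 15.8 ± 2.64% for CCK (glia 3.49% and 4.53%), 2.06 ± 0.32% and 3.82 ± 1.21% for CRHBP (glia 0.23% and 0.22%), and 0.60 ± 0.07% and 1.70 ± 0.55% for TAC1 (glia 0.13% and 0.18%). For these 4 genes the groups did not overlap (each exact permutation p = 0.1, n = 3). For how many of all genes that holds at equal depth was not computed. NPY at 5.13 ± 2.21% and 12.8 ± 5.42%, VIP at 7.61 ± 2.44% and 10.5 ± 3.37%, CRH at 2.03% and 3.65% and NMU at 0.57% and 0.81% overlapped. Thinning left out 44, 3 and 8 control and 5, 2 and 1 ALP InN-like nuclei with fewer UMIs. Without thinning the SST shares were 14.4 ± 1.58% and 23.2 ± 6.54%.

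Nuclei with several UMIs of a gene were counted next. SST reached 5 or more UMIs in 6, 7 and 4 control nuclei and 49, 24 and 20 ALP nuclei, which is 1.52 ± 0.77% and 7.36 ± 2.90% of InN-like nuclei. NPY did so in 4, 7 and 3 control and 34, 13 and 32 ALP nuclei, and CCK in 7, 12 and 5 against 29, 25 and 29. None of these overlapped as shares of InN-like nuclei, which were not thinned here. Without thinning, 15.02 ± 3.91% of control and 15.6 ± 5.48% of ALP nuclei held a VIP UMI (exact permutation p = 0.9, n = 3), while 34 control and 89 ALP nuclei held 5 or more, which overlapped as shares between groups. Per VIP-positive nucleus there were 2.86 ± 0.78 UMIs in control and 6.08 ± 1.29 in ALP libraries, and per SST-positive nucleus 2.40 ± 0.41 and 5.17 ± 0.55, both without overlap (exact permutation p = 0.1, n = 3). For these counts and means the share of all genes without overlap was not computed.

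**Figure D3:**
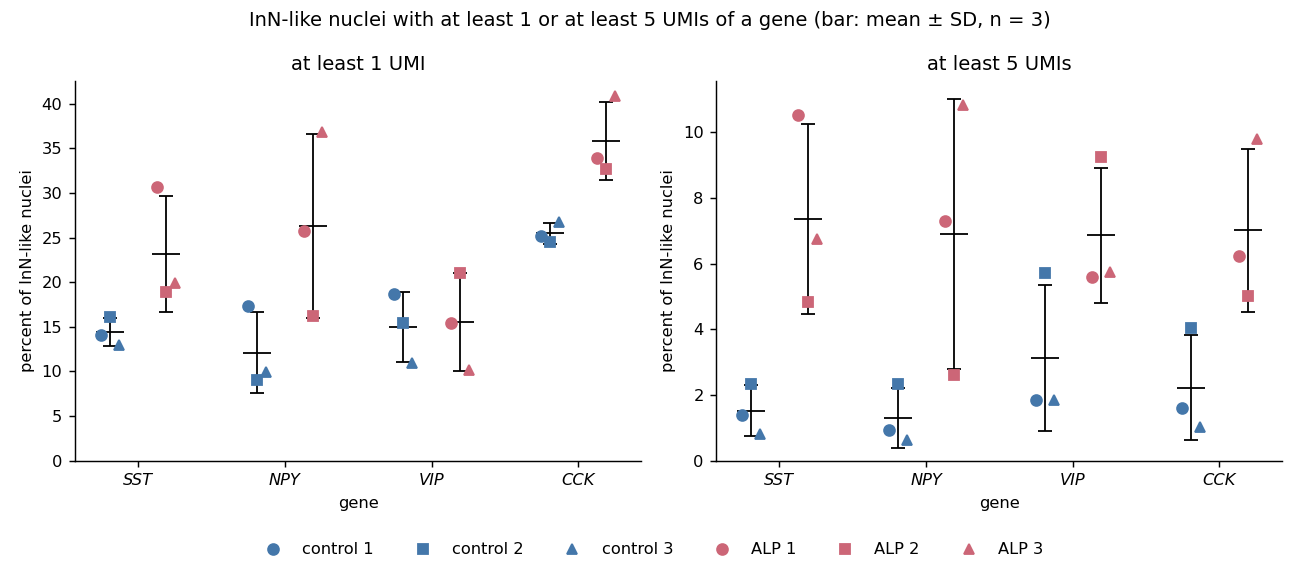
Percent of InN-like nuclei in each library with at least 1 UMI (left) or at least 5 UMIs (right) of SST, NPY, VIP and CCK, with mean and SD of 3 libraries. The share with any VIP UMI overlaps between control and ALP, and the share with 5 or more SST UMIs is 0.82 to 2.35% in control and 4.82 to 10.5% in ALP libraries.

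The comparison was then made within interneuron subclasses. In CGE-VIP-like nuclei, 39 to 126 per library, VIP was at 286, 383 and 255 CPM in control and 1222, 980 and 1291 CPM in ALP libraries, a 3.78-fold difference of means without overlap. Its log2 fold change was 1.91 (SE 0.21, adjusted p = 0.00055 in edgeR), and it was called under all 17 alternatives, with a highest adjusted p of 0.0124. CCK in the same nuclei was at 74.9, 35.2 and 64.5 CPM against 339, 142 and 155 CPM, with a log2 fold change of 1.82 (SE 0.37, adjusted p = 0.0462 in edgeR). So 2 of the 3 genes tested were called, beside 0.626% of 4789 genes. By plain CPM, 7.21% of genes with at least 10 UMIs had all ALP levels above the control levels. CRH, at 121, 35.2 and 55.7 CPM against 110, 142 and 172 CPM, overlapped and was not called (log2 fold change 0.92, adjusted p = 0.259 in edgeR).

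The CCK call in CGE-VIP-like nuclei was less stable than the VIP call and was kept under 7 of 17 alternatives. Its adjusted p in edgeR was 0.0764 without control 2, 0.0768 without control 3, 0.225 without ALP 1 and 0.230 without ALP 3, and over all alternatives it ranged from 6.5e-06 to 0.230. Subclusters 1, 6 and 9 made up this class, and subcluster 6 held 34, 30 and 47 control but 10, 41 and 4 ALP nuclei. Subcluster 1 alone gave VIP a log2 fold change of 1.64 (adjusted p = 0.0145 in edgeR) and CCK 1.77 (0.0483), with 0.639% of genes called, and subcluster 9 alone gave VIP 3.02 (0.0297), with 0.541%. In the whole ADARB2 group VIP at 1.33 and CCK at 1.68 were called (adjusted p = 0.0439 and 0.0446 in edgeR, 0.556% of 8638 genes called). Both calls there were lost without control 3, ALP 1 or ALP 3, where the adjusted p was 0.136 to 0.230. The VIP call was also lost without ALP 2 (0.0542). In CGE-CNR1-like nuclei, where CCK was at 220, 266 and 111 CPM in control and 478, 362 and 894 CPM in ALP libraries, the log2 fold change was 1.79 with an adjusted p of 0.0716 in edgeR (0.288% of genes called).

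In the clustering with the limit of 2500 genes, control 3 held 1 MGE-SST-like nucleus, and 103 of the 183 nuclei of unnamed subcluster 3, where SST was at 348 CPM, were from that library. In a clustering with the limit lifted the MGE-SST-like class had 599 nuclei, 37 to 134 per library, with 117 from control 3, of which 84 were over the limit. SST was then at 393, 278 and 192 CPM in control and 1592, 934 and 1191 CPM in ALP libraries, 4.31-fold without overlap. NPY was at 66.6, 63.2 and 30.1 CPM against 1121, 253 and 750 CPM, and TAC1 at 24.5, 9.81 and 7.53 CPM against 89.9, 165 and 104 CPM. Neither overlapped, and 13.3-fold and 8.58-fold differences separated the means. The share of genes with at least 10 UMIs whose ALP levels all exceeded the control levels was 5.88%.

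In that fit SST (log2 fold change 2.21, SE 0.29), NPY (3.84, SE 0.52) and TAC1 (3.28, SE 0.40) each had an adjusted p of 0.0436 in edgeR. They were the only 3 of 7275 genes called (0.0412%). CRH at 2.59 (adjusted p = 0.138) and CRHBP at 1.63 (0.223) were not called by edgeR. Leaving out single libraries changed these calls. All 3 were called without control 1 or control 3. Without ALP 2, SST (adjusted p = 0.0586 in edgeR) and TAC1 (0.0846) lost the call and NPY (0.0045) did not. Without control 2 (0.0564 to 0.0584), ALP 1 (0.175 to 0.315) or ALP 3 (0.323) all 3 lost it, while the log2 fold changes stayed at 1.98 or more. With the gene limit kept and control 3 not in the fit, SST at 1.64 (adjusted p = 0.0046) and NPY at 2.26 (0.031) were called by edgeR and TAC1 at 2.33 (0.0562) was not (0.102% of 2946 genes called).

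**Figure D4:**
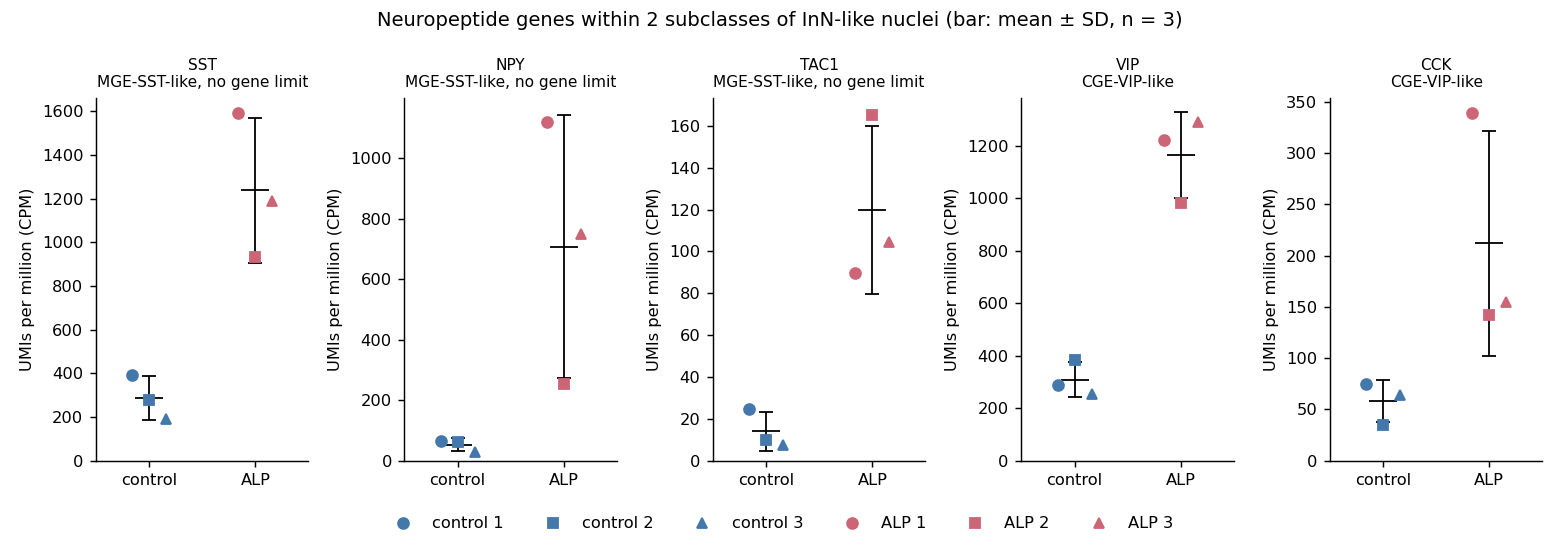
CPM by library of SST, NPY and TAC1 in MGE-SST-like nuclei without the gene limit, and of VIP and CCK in CGE-VIP-like nuclei, with mean and SD of 3 libraries per group (linear axes from 0, different ranges). In each panel the 3 ALP libraries lie above the 3 control libraries, with ALP 2 the lowest ALP library for SST, NPY, VIP and CCK and the highest for TAC1.

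NPY without the gene limit was also called in LAMP5-like nuclei, which resemble neurogliaform cells, with 149, 81.4 and 53.4 CPM in control and 409, 266 and 576 CPM in ALP libraries (log2 fold change 2.33, adjusted p = 0.0260 in edgeR, with 0.293% of 4093 genes called). That call was lost without control 2 (adjusted p = 0.0528 in edgeR), ALP 1 (0.180) or ALP 3 (0.328) and with the replicate block (0.0698), while the NPY log2 fold change stayed between 1.97 and 2.83 over 8 alternatives. Control 3 gave 166 of these 438 nuclei, and with the limit kept 1 LAMP5-like subcluster held 89 control 3 nuclei and no ALP nucleus. In the whole LHX6 group with the limit kept, SST at 1.55, NPY at 2.00 and TAC1 at 2.03 each had an adjusted p of 0.082 or 0.083 in edgeR, and 0.0114% of 8776 genes were called. For MGE-PVALB-like nuclei CRHBP (0.53) and CCK (0.44) could be tested and neither was called (0.0397% of genes called). NPY in these nuclei was at 17.3, 6.096 and 31.4 CPM in control and 727, 47.5 and 19.0 CPM in ALP libraries, and the high ALP 1 value included the nucleus with 272 NPY UMIs. The LHX6 group held CCK at 78.6, 107 and 106 CPM in control and 147, 128 and 154 CPM in ALP libraries, without overlap (log2 fold change 0.68, adjusted p = 0.143 in edgeR).

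**Figure D5:**
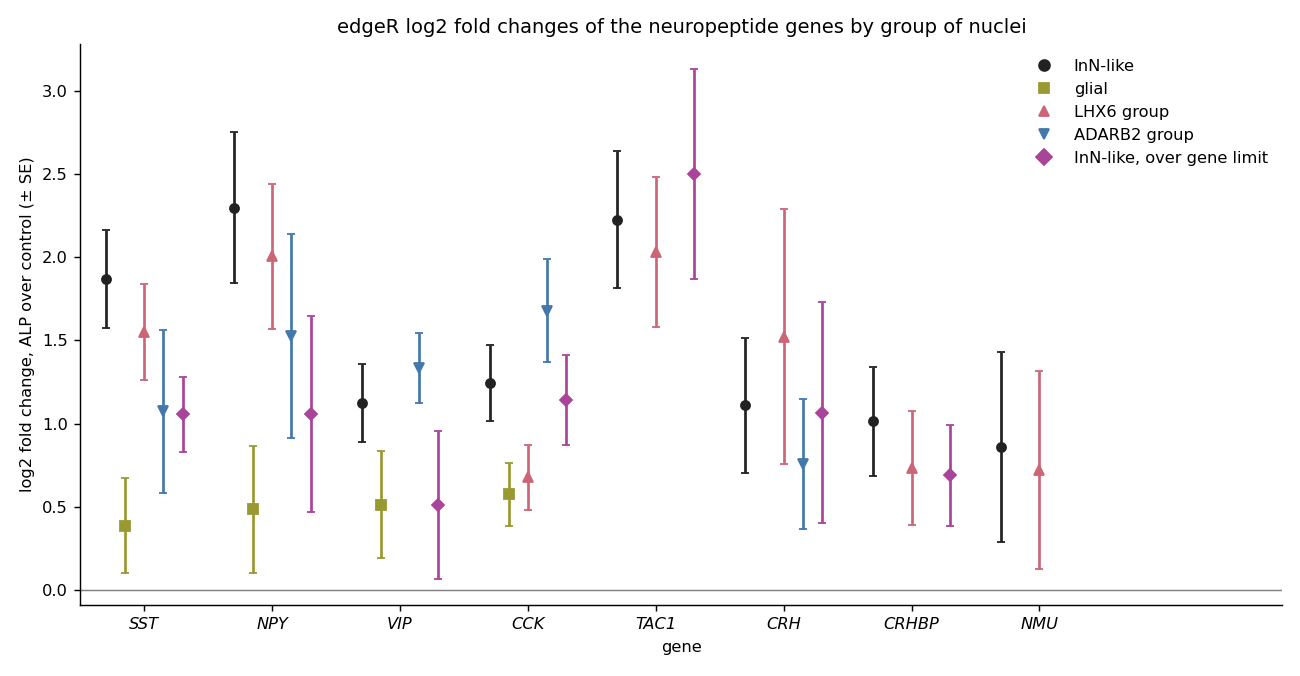
edgeR log2 fold changes (ALP over control, bars ± SE) of the 8 genes in InN-like nuclei, glial nuclei, the LHX6 and ADARB2 groups, and InN-like nuclei over the gene limit, each point a fit over 6 libraries. All points lie above 0, glial values between 0.39 and 0.57, and genes with too few counts in a group of nuclei have no point.

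The limit on genes moved with the groups. It left out 46.9, 56.3 and 55.2% of control and 24.7, 33.3 and 20.7% of ALP InN-like nuclei (means 52.8 ± 5.16% and 26.2 ± 6.41%, exact permutation p = 0.1, n = 3), but only 1.86% and 0.80% of glial nuclei. In MGE-SST-like nuclei it left out 64.1% and 27.9%, and in CGE-VIP-like nuclei 16.3% and 2.01%. Without it the InN-like log2 fold changes in edgeR were 1.43 for SST, 1.47 for NPY, 1.31 for VIP, 1.49 for CCK and 2.40 for TAC1. Of these SST, VIP, CCK and TAC1 were called (adjusted p = 0.0423 to 0.0471, with 2.6% of 15970 genes called) and NPY was not (0.157). Without the limit NPY was at 241, 63.1 and 59.96 CPM in control and 372, 131 and 364 CPM in ALP libraries, so that control 1 exceeded ALP 2 and the groups overlapped.

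The 1707 InN-like nuclei over the limit were also tested alone. SST was at 156, 111 and 85.8 CPM in control and 271, 212 and 172 CPM in ALP libraries, and CCK at 114, 64.3 and 56.4 CPM against 200.1, 130 and 133 CPM. TAC1 was at 6.71, 7.21 and 1.52 CPM against 14.8, 47.3 and 9.27 CPM. These 3 genes did not overlap between groups, beside 4.55% of genes with at least 10 UMIs. NPY, at 313, 62.4 and 64.5 CPM against 328, 144 and 346 CPM, and VIP, at 46.3, 68.7 and 30.1 CPM against 55.8, 103 and 17.0 CPM, did overlap, as did CRH, CRHBP and NMU. In edgeR the log2 fold changes were 1.05 for SST (adjusted p = 0.0677), 1.14 for CCK (0.0736), 2.5 for TAC1 (0.0804), 1.06 for NPY (0.347) and 0.51 for VIP (0.565), and none was called, with 0.12% of 13318 genes called.

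In the main setting, with the gene limit kept, no subclass share separated the groups. The largest difference was in MGE-PVALB-like nuclei, which made up 7.58 ± 3.73% of control and 15.5 ± 4.13% of ALP InN-like nuclei (exact permutation p = 0.2, n = 3). Without the gene limit their share was 13.3 ± 1.96% and 18.6 ± 2.55% and did separate the groups (exact permutation p = 0.1, n = 3). With the limit kept their share also did so at clustering resolution 1, with library-centred values and at subcluster resolution 0.5. PVALB, one of the markers that named them, was at 3.83, 3.02 and 3.60 CPM in control and 13.1, 7.51 and 11.6 CPM in ALP InN-like sums. It was not specific to InN-like nuclei. Over all libraries pooled it stood at 7.26 CPM there, 9.16 CPM in Endo-like nuclei and 1.26 to 4.12 CPM in the other classes. MGE-SST-like nuclei made up 6.56 ± 5.98% of control and 12.1 ± 2.95% of ALP InN-like nuclei (exact permutation p = 0.2, n = 3), and 14.90 ± 4.97% and 14.998 ± 3.96% without the gene limit (exact permutation p = 1, n = 3). CGE-VIP-like nuclei made up 21.5 ± 3.15% and 18.2 ± 6.33% (exact permutation p = 0.5, n = 3). Markers of other classes in the InN-like sums were low. SLC17A7 of excitatory neurons was at 7.20 to 14.3 CPM in control and 7.24 to 7.56 CPM in ALP libraries, which overlapped. SLC1A2 of astrocytes was lower in ALP, at 10.9 to 17.5 against 5.55 to 10.1 CPM. The part of the gene limit, the subclass shares and these markers in the results was not tested.

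Receptors of the peptides were sparse. Of 21 receptor genes listed, 3 could be tested in InN-like nuclei and none was called by edgeR: NPY5R had a log2 fold change of 1.49 (adjusted p = 0.128), TACR1, the substance P receptor, 1.13 (0.190) and SSTR2 0.02 (0.989). Of 20 genes for peptide processing and dense-core vesicles, 16 were tested in InN-like nuclei, 10 with positive and 6 with negative estimates and a median of 0.21. None was called, and the extremes were SCG2, which encodes the granule protein secretogranin II, at 1.02 (adjusted p = 0.0646 in edgeR) and PCSK2, a prohormone convertase, at −0.62 (0.0675). Of 20 other neuropeptide genes 3 were tested, PNOC at 0.69, RLN3 at 0.10 and PENK at −0.32, and none was called. In CGE-VIP-like nuclei 3 of 13 processing genes were called, all higher in ALP, beside 0.251% of all genes: SCG2 at 2.12 (adjusted p = 0.00015), SCG3 at 1.20 (0.0462) and PCSK1N, an inhibitor of a prohormone convertase, at 1.26 (0.0462 in edgeR). SCG2 kept its call under 17 of 17 alternatives, SCG3 under 7 and PCSK1N under 8. Outside InN-like nuclei, 1 of 15 processing genes tested was called in Oligo-like nuclei, beside 4.93% of all genes. It was PCSK1N, higher in ALP (0.96, adjusted p = 0.0320 in edgeR). In ExN-like nuclei 2 of 14 were called, beside 3.25% of all genes. SCG3 was higher there (1.42, adjusted p = 0.0414 in edgeR) and the carboxypeptidase gene CPD lower (−1.23, 0.0448). Within InN-like nuclei, 1 of 15 was called in the ADARB2 group, beside 0.556% of all genes. Without the gene limit 4 of 18 were called in InN-like nuclei (2.6%), and in those over it 1 of 16 (0.12%).

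The genes most like each member in level were named by Pearson correlation of log2(CPM + 1) among 10323 candidates. The correlation ran over 83 sums of a library and a class or subclass, which share libraries and depth. Nuclei of a subclass are also in the InN-like sum. KLHL14, GRIN3A, CXCL14 and LAMP5 were among the markers that named subclasses, so their place below is partly built in. SST was closest to CENPS (0.69), EYS (0.68) and MME (0.68), and CRHBP to EYS (0.84), PPIP5K2 (0.78) and MME (0.75). TAC1 was closest to TPH2 (0.71), KLHL14 (0.70) and EYS (0.64), and NPY to LYPD6 (0.59), EYS (0.57) and PTPRM (0.56). VIP was closest to ECEL1 (0.80) and CALCR (0.76), CRH to PDE1C (0.70), GRIN3A (0.68) and OXTR (0.68), CCK to GYG1 (0.64), NECAB2 (0.63) and CXCL14 (0.63), and NMU to LAMP5 (0.49), MAMDC2 (0.45) and KIRREL1 (0.44). Among the members themselves the highest values were 0.78 for SST with TAC1, 0.75 for SST with NPY and 0.65 for VIP with CRH, and the lowest was −0.22 for CCK with TAC1.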

How the data were processed

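Nuclei of 6 tree shrew hippocampi (3 control, 3 ALP) were sequenced by the 10x Genomics 3′ method. The deposited matrices hold UMI counts per feature and nucleus, which the authors made with Cell Ranger 3.1.0 (per the methods; the file header names another version) and the TreeshrewDB genome. No strand setting is given in the sources used here, so antisense reads cannot be told apart.

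As in the study's methods, nuclei with 200 or more but fewer than 2500 genes were kept if mitochondrial UMIs made up no more than 5%. They were clustered (30 components, resolution 2) without the 8 genes and other neuropeptide genes, and doublets were marked but kept. A cluster was named "X-like" when it held 3 or more listed markers with a mean log2 fold of at least 1 over other nuclei, unless 15% or more of its nuclei were marked doublets or mitochondrial, haemoglobin or another class's genes led it. UMIs were summed per library and class (at least 10 nuclei in every library), and sums were tested by edgeR 4.0.16 (R 4.3.3; quasi-likelihood, TMM, minimum count 10, Benjamini-Hochberg adjustment over all genes tested, threshold 0.05). This replaces the study's model over nuclei, since nuclei of 1 animal are not replicates. DESeq2 1.42.0 was an alternative. The script was tested on simulated data. Single values were compared by two-sided exact permutation tests. CPM is per 1000000 UMIs of the sum. Plain CPM ratios and fitted fold changes differ through the TMM scaling.

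Named were the 8 genes in every class, genes of the 3 lists that were called or else lay at the extremes, and the 3 genes most correlated with each member. Some items these rules name are not reported here. The members and lists were chosen with earlier results of these data known. The thresholds for naming clusters, the LHX6 and ADARB2 groups, single subclusters, the interaction, and the fits without top nuclei, with a Y-linked term, over the gene limit and without control 3, and the alternatives for LAMP5-like nuclei, were set after seeing the data.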

Additional observations from a re-analysis of the deposited data

Results flagged for a closer look

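The SST change differed between InN-like and glial nuclei, by 1.51 on the log2 scale in edgeR's interaction fit (adjusted p = 0.0172, higher in ALP libraries in InN-like nuclei in 3 of 3). That fit was set after seeing the data. With 1 library left out the call was kept in 3 of 6 fits, and the adjusted p in edgeR reached 0.287. In the InN-like nuclei that the limit of 2500 genes had left out, which entered none of the main comparisons, ALP levels were above all control levels for SST (1.86-fold), CCK (1.97-fold) and TAC1 (4.61-fold) by plain CPM. None of the 8 genes was called there by edgeR (0.12% of 13318 genes called). SST was at 156, 111 and 85.8 CPM in control and 271, 212 and 172 CPM in ALP libraries, with a log2 fold change of 1.05 (adjusted p = 0.0677). Beside these, 4.55% of the 24345 genes with at least 10 UMIs in those sums had all ALP levels above the control levels.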

How the results depend on the processing

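Of the 8 genes, 0 were called in InN-like nuclei in edgeR's main fit. The count, with the share of all genes called, was 5 with DESeq2 (3.91%), 4 with upper-quartile scaling (1.45%), 7 without the filter on low counts (3.50%), 4 without the gene limit (2.6%), 3 with a term for Y-linked transcripts (2.46%), 2 without the doubted subclusters (0.665%), 1 in the interaction (0.0258%) and 0 to 6 with 1 library left out. In subclasses 2 pairs of gene and subclass were called, both in CGE-VIP-like nuclei (0.626% of all genes called). Pairs tested were 3 in CGE-VIP-like, 2 each in MGE-PVALB-like and CGE-CNR1-like and 1 in LAMP5-like nuclei. MGE-SST-like nuclei were not in that setting. Pairs called numbered 6 without the filter, 5 without the gene limit and 4 with MGE-SST-like nuclei added without control 3. In that added fit 0.102% of genes were called. The number was 1 with the 8 genes kept among the variable genes, at resolution 1 or with library-centred values. It was also 1 at subcluster resolution 0.5 or with the Y-linked term, and 1 to 4 with 1 library left out. Other shares of genes called in these subclass fits, where not given above, are not reported here. In glial nuclei 0 of the 8 genes were called in the main fit. Among 15 alternatives, 1 fit with 1 library left out called 1 gene. The share of all genes called in that fit is not reported here. Calls in other classes, where few of the 8 genes passed the filter on low counts, stayed at 0. Separated ratios to glia numbered 2 (4 without the gene limit, 2 to 5 with 1 library left out), separated detection shares 4 (4 to 7), and genes higher than in the next class in every library 4 (4 to 7). The last count was 3 without the gene limit, where SST was higher in 5 of 6 libraries, and 3 at resolution 1, where CRHBP was. For the ratios and the detection shares, the share of all genes separating the groups was not computed. Separated subclass shares numbered 0 (1 without the gene limit, at resolution 1, centred or at subcluster resolution 0.5, and 0 to 3 with 1 library left out). The cause of these changes was not tested.

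Some differences changed sign. With 1 library left out, the CRH interaction ran from −1.26 to 0.042 (without control 1) and the CRH log2 ratio to glia from −1.03 to 0.16 (without control 1). That ratio was 0.14 without the gene limit, and TAC1 against the next class −0.18 without ALP 2. The CGE-VIP-like share difference, in percentage points, was 0.76 without the gene limit and 0.015 at subcluster resolution 0.5. That of LAMP5-like nuclei was 1.38 at resolution 1, 1.29 centred and 1.38 at subcluster resolution 0.5. That of CGE-CNR1-like nuclei was −0.90 centred, −4.08 at subcluster resolution 0.5, −0.12 without control 1, −0.12 without control 3 and −1.50 without ALP 3, and went up to 1.62 with another library left out.

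Replicate numbers are shared between the groups, and the labels do not say whether they mark a pairing. Same-numbered libraries had correlations of −0.06, −0.01 and −0.09 over 11965 genes, and differently numbered ones −0.04 to 0.09. Such values cannot decide whether libraries were prepared together. With the replicate number as a block, 0 of the 8 genes were called in InN-like nuclei, and SST, NPY and TAC1 in MGE-SST-like nuclei without the gene limit each had an adjusted p of 0.0528 in edgeR. Low counts limit NMU (70 UMIs) and TAC1 (159 UMIs).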
